A study of Homo sapiens with 6 samples.

Results

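The microRNA entries described here are those of 1 registration period of miRBase, the public microRNA registry, whose mature-sequence accessions run from MIMAT0005458 to MIMAT0005955. They were selected by accession number alone and comprise 124 of the 1212 rows of the deposited table (10.2%). The selection rule used no measured values, though it was chosen with earlier results of these data known. Each of the 124 rows carries 1 accession. Intensities were measured on 1-colour microarrays of Hy5-labelled total RNA from Huh7, a human hepatocellular carcinoma cell line, in 3 control samples without metformin and 3 samples given 10 mM metformin, the biguanide used against diabetes. Both groups were kept for 72 h, and no other agent or genetic change is named in the labels. The labels do not tell whether the replicates are separate cultures or repeats of 1 culture, and the tests thus capture variation among these samples that could be purely technical. The comparison asks which of these entries differ in signal between metformin-treated and untreated hepatoma cells.

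MicroRNAs are short RNAs that guide Argonaute proteins to messenger RNAs through the seed, bases 2 to 8 of the mature sequence. Entries of this period came largely from early deep sequencing and were described as spanning miR-1224 to miR-1323. They include mirtrons, which are cut from short introns by splicing and so bypass the nuclease Drosha, members of the repeat-derived miR-548 family, and sequences later traced to transfer, ribosomal or small nuclear RNA, such as miR-1246, miR-1274, miR-1280, miR-1308 and miR-720. RNAs of these housekeeping classes make up most of a cell's total RNA.

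The deposited table gives accessions only, and 0 of the 124 accessions were found in the RefSeq tables used here, so no intensity below is attached to a microRNA name. The description of the range could therefore not be checked against names, nor could microRNAs that mark hepatocytes or other cell types be looked up. RefSeq sequences (build GRCh38.p14) are shown for those microRNAs that the description of the range names and the RefSeq table holds, to show what kind of RNA the range covers. Capitals mark the seed.
hsa-miR-1224-5p: gUGAGGACucgggaggugg
hsa-miR-1224-3p: cCCCACCUccucucuccucag
hsa-miR-1246: aAUGGAUUuuuggagcagg
hsa-miR-1323: uCAAAACUgaggggcauuuucu

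The first 2 are the arms of 1 hairpin, at chr3:184241405-184241423 and chr3:184241469-184241489 on the plus strand, inside the span of the protein-coding gene VWA5B2. Of their bases, 57.9% are G in the 5p arm and 4.76% in the 3p arm. miR-1246, whose sequence resembles part of U2 small nuclear RNA, lies at chr2:176601024-176601042 on the minus strand, within no other gene span of the RefSeq gene table. miR-1323 lies at chr19:53671978-53671999 on the plus strand, inside the span of the long noncoding RNA LOC107985342. The gene table gives spans without exons, so exonic and intronic positions were not told apart. miR-1274, miR-1280, miR-1308 and miR-720 are named only.

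Signal in the range was carried by very few entries. The 124 entries together held 22.6% ± 0.54 of an array's summed intensity in control and 22.5% ± 1.54 with metformin (mean ± SD, n = 3). The 3 brightest entries alone held 17.2% ± 0.49 of the summed intensity in control and 16.7% ± 1.85 with metformin (SD, n = 3). On single arrays these 3 made up between 70.6% and 77.3% of the signal of the range, the lowest share on metformin replicate 2 and the highest on metformin replicate 1. Apart from the 13 entries above 50 on every array, the range held at most 2.11% of an array's summed intensity. Intensities of different probes depend on more than abundance, so brightness does not rank the RNAs themselves.

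**Figure D1:**
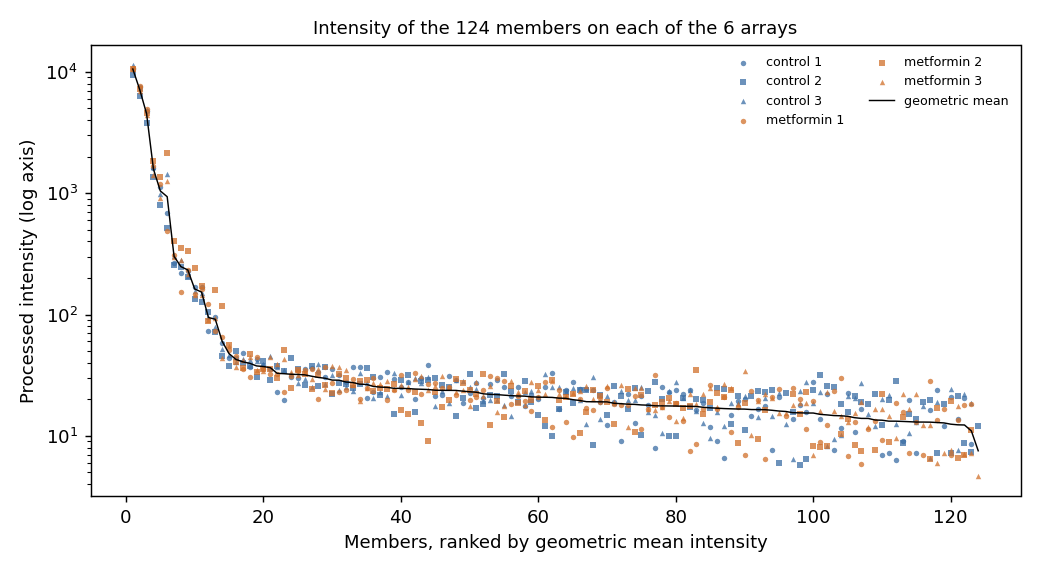
Processed intensity (log axis, arbitrary units) of each of the 124 entries on the 6 arrays, ranked by geometric mean, with control arrays in blue, metformin arrays in orange and a different marker for each replicate number. The 3 brightest entries lie at 3813 or higher on every array, while most entries lie between 10 and 40 and scatter more widely towards the dim end.

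An entry's geometric mean over the 6 arrays placed 4 of the range among the 10 brightest of the 1038 rows with a value on all 6 arrays, 6 among the 20 brightest and 11 among the 104 brightest. A typical entry was about as bright as a typical row. In total, 104 of the 124 entries had a value on all 6 arrays and entered the test, and their median intensity was 21.6, against 22.5 for all 1038 rows. When all rows tested were divided into 4 bands of brightness, 23 entries fell among the 260 brightest rows (mean intensity 32.5 or higher), 25 and 22 in the middle bands and 34 among the 259 dimmest (18.0 or lower). The entries therefore made up 8.85% of the brightest band and 13.1% of the dimmest, against 10.0% of all rows tested.

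The brightest entry, MIMAT0005938, was the steadiest of the bright ones. It stood at 10521, 9508 and 11353 in the 3 control samples and at 10854, 10568 and 10570 with metformin. All 3 metformin values lay inside the range of the control values. Its log2 difference, metformin minus control, was 0.03 (SE 0.21, 95% interval -0.46 to 0.52, limma adjusted p = 0.991). After quantile normalization it was -0.05. In linear terms the interval runs from 0.729-fold to 1.43-fold. The error of the test is larger than this entry's own within-group SD of 0.09 on the log2 scale, because limma moves each row's spread towards that of all rows.

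MIMAT0005946, next in brightness, stood at 7513, 6288 and 7423 in control and 7601, 7183 and 6973 with metformin. MIMAT0005954 followed at 4751, 3813 and 4840 in control and 4912, 4551 and 4377 with metformin. For both, control replicate 2 was the lowest of the 6 arrays and metformin replicate 1 the highest, and the groups overlapped. Their log2 differences were 0.04 (SE 0.21) and 0.05 (SE 0.22), each with a limma adjusted p = 0.991. Without control replicate 2 the differences of the 3 brightest entries were -0.04, -0.04 and -0.06.

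MIMAT0005927 measured 1612, 1349 and 1656 in control and 1680, 1838 and 1409 with metformin, a log2 difference of 0.09 (SE 0.23). MIMAT0005911 measured 1136, 792 and 981 in control and 1185, 1365 and 908 with metformin, a log2 difference of 0.24 (SE 0.26, limma adjusted p = 0.991). That difference was 0.11 without control replicate 2, 0.11 without metformin replicate 2 and 0.41 without metformin replicate 3. In both the highest value was on metformin replicate 2 and the lowest on control replicate 2, and the groups overlapped. These 5 entries and the next were singled out by their brightness after their values were seen.

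MIMAT0005898 differed from the other bright entries in its spread between arrays. It stood at 693, 514 and 1433 in control and at 485, 2146 and 1263 with metformin, so that the highest array was 4.43 times the lowest. For the other 12 entries above 50 on every array that ratio lay between 1.19 and 2.32. High and low values occurred in both groups, with control replicates 1 and 2 and metformin replicate 1 low, and control replicate 3 and metformin replicates 2 and 3 high. The 3 low arrays are the first 3 columns of the deposited table and the 3 high arrays are the last 3, and whether they were handled apart was not tested, since the labels name no batch. Its within-group SD was 0.94 on the log2 scale, close to the widest of the range, in which SDs of tested entries ran from 0.05 to 0.96. The log2 difference of 0.45 (SE 0.59) had a 95% interval from -0.91 to 1.82, which leaves anything from a 0.533-fold to a 3.52-fold level possible, and a limma adjusted p = 0.991. The difference was -0.03 without metformin replicate 2 and 1.04 without metformin replicate 1.

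**Figure D2:**
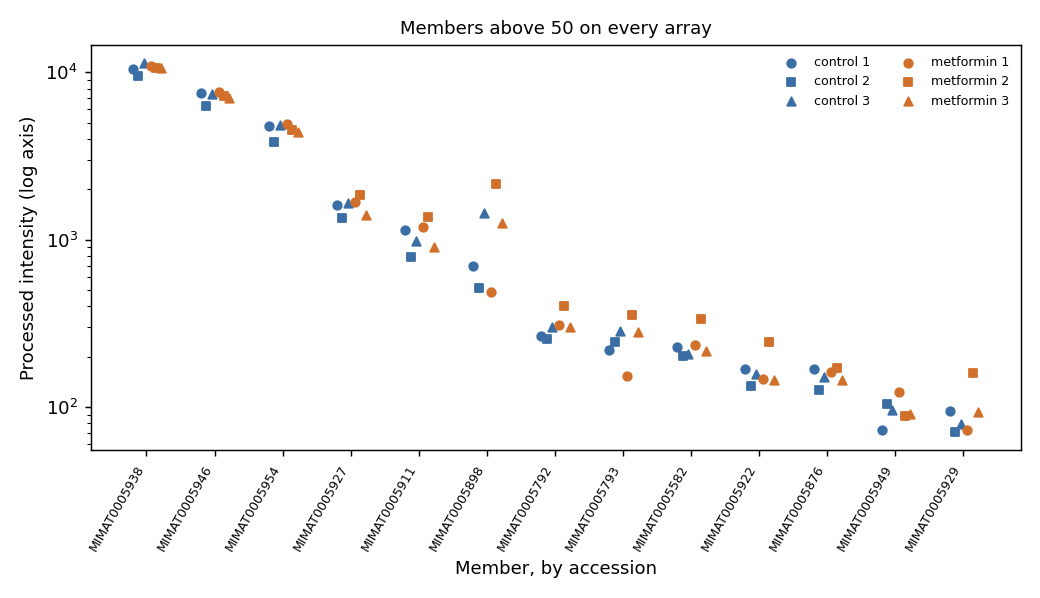
Processed intensity (log axis, arbitrary units) of the 13 entries above 50 on every array, by accession, with 3 control arrays in blue and 3 metformin arrays in orange and markers for the replicate number. The groups overlap for every entry but the differences between arrays are small for the 3 brightest, and MIMAT0005898 spreads from 485 to 2146.

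The remaining 7 entries above 50 on every array had geometric means from 91.4 to 301. The threshold of 50 was set after the values were seen. The lowest value among the 13 entries was 71.3, and the next entry in brightness ran from 43.9 to 117.9. Each of the 13 averaged higher with metformin, with a median log2 difference of 0.15, against 0.10 for the 260 brightest of all rows. The smallest of these differences was 0.00022, for MIMAT0005793. After quantile normalization the count was 9, but MIMAT0005946 and MIMAT0005954 then differed by 0 within rounding (1.7e-16 and 3.7e-17). Their sign in that setting carries no meaning. None of the 13 passed the test. Among the 260 brightest rows, 186 (71.5%) had a higher mean with metformin, and among all 1038 rows 52.9%. The lean rested on few arrays. Control replicate 2 was the lowest array for 10 of the 13, metformin replicate 2 was the highest for 9, and without control replicate 2 only 7 of the 13 averaged higher with metformin. The median difference of the 13 was 0.05 without metformin replicate 2, 0.09 without control replicate 2 and 0.03 after quantile normalization. The median deviation of the 13 entries from their own means was 0.03, -0.25 and 0.01 on the control arrays and 0.04, 0.39 and -0.05 on the metformin arrays, on the log2 scale. Thus 1 array of each group stood apart from the other 4, and the remaining arrays of the groups overlapped. Summed intensity of all rows, the 13 included, was 128625, 116774 and 139060 in control and 124618, 147272 and 134695 with metformin. It was likewise lowest on control replicate 2 and highest on metformin replicate 2. The median deviation over all rows tested was 0.01, -0.04 and 0.08 in control and -0.004, 0.03 and 0.12 with metformin. Whether the 13 follow a difference of whole arrays was not tested.

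No entry of the range differed between metformin and control past the threshold. Of the 104 entries tested, 0 had a limma adjusted p under 0.05, as had 0% of all 1038 rows, and the lowest adjusted p among the entries was 0.991. Without adjustment, 7 entries (6.73%) had a limma p under 0.05, against 2.70% of all rows. Of these, 2 were higher with metformin (1.92%, against 1.64% of all rows) and 5 lower (4.81%, against 1.06%). The 7 entries made up 25.0% of the 28 such rows of the table. All 7 lay in the dimmest band, of which entries make up 13.1%. The bands of the other such rows were not counted. The number of entries with an unadjusted p under 0.05 was 2 of 104 without control replicate 3. All rows then gave 34 of 1038, a larger share. It was 4 without control replicate 1 (23 of all rows) and 4 without metformin replicate 2 (25 of all rows). With trend and robust settings of limma it was 2 (18 of all rows). Mean differences above 2-fold were seen for 3 entries (2.88%), all lower with metformin and all in the dimmest band. They were seen for 8 of all rows (0.771%), 6 lower and 2 higher.

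The 3 metformin values all lay above the 3 control values for 4 entries (3.85%, against 4.43% of all rows) and all below them for 7 entries (6.73%, against 3.18%). The median log2 difference over the 104 entries was 0.03, the same as over all rows (0.03), but it was -0.04 without control replicate 2. By their means, 54 entries were higher and 50 lower with metformin.

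**Figure D3:**
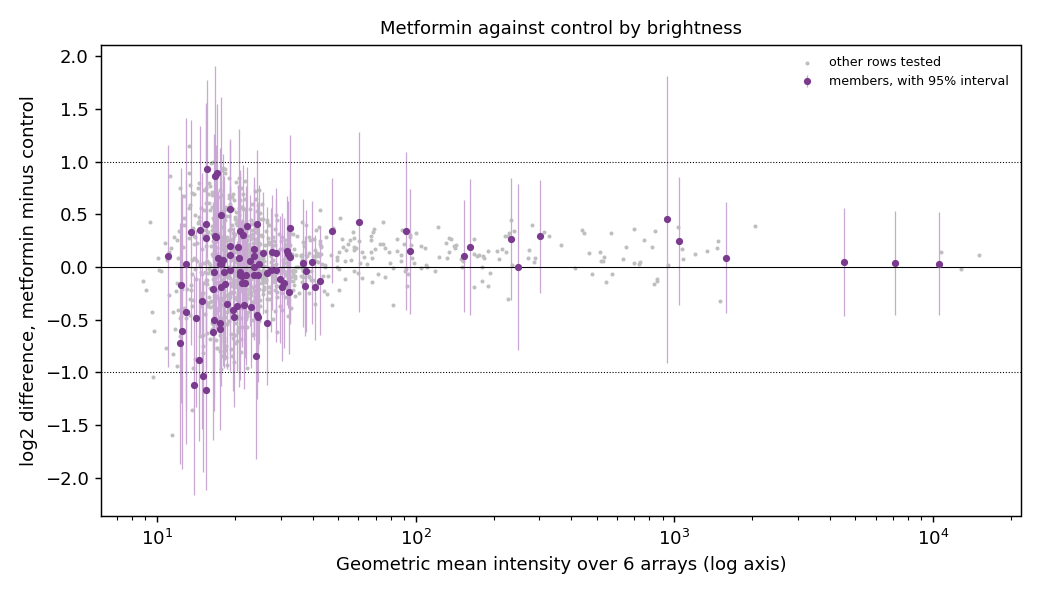
Log2 difference (metformin minus control) of the 104 tested entries with 95% intervals (purple) over all other tested rows (grey), plotted against geometric mean intensity (log axis). Dotted lines mark a 2-fold change, the intervals of 7 dim entries leave out 0, and the 3 brightest entries lie at 0.03, 0.04 and 0.05.

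The entries with the smallest unadjusted p in each direction were dim, and none passed after adjustment. MIMAT0005917 measured 11.9, 17.0 and 9.70 in control and 26.3, 19.0 and 25.0 with metformin. Its 3 metformin values lay above all control values, and the log2 difference was 0.89 (SE 0.28, limma adjusted p = 0.991). MIMAT0005932 measured 13.9, 15.8 and 6.50 in control and 24.7, 22.2 and 18.0 with metformin, again without overlap. Its log2 difference was 0.93 (SE 0.36, limma adjusted p = 0.991), and it was 0.53 without control replicate 3, the lowest array.

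In the other direction, MIMAT0005791 measured 28.0, 23.8 and 18.6 in control and 19.3, 8.20 and 6.90 with metformin. The groups overlapped, since metformin replicate 1 exceeded control replicate 3. The log2 difference was -1.17 (SE 0.41, limma adjusted p = 0.991). MIMAT0005955 measured 13.9, 31.5 and 22.9 in control and 8.90, 8.10 and 16.1 with metformin, also with overlap, and differed by -1.04 (SE 0.39). The lowest values of MIMAT0005932, MIMAT0005791 and MIMAT0005955 were 6.50, 6.90 and 8.10. These come near the lowest on any array, which lay between 4.70 and 6.20. The lowest value of MIMAT0005917, also dim, was 9.70.

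The range left room for larger changes in dim entries than in bright ones. The 95% interval, not adjusted for the number of rows, lay wholly within a 2-fold change for 57 of the 104 entries (54.8%), against 54.9% of all rows, and for 37 without control replicate 3. In the brightest band this held for 19 of 23 entries, in the next for 20 of 25, in the one after for 15 of 22 and in the dimmest for 3 of 34. The shares of entries, 82.6%, 80.0%, 68.2% and 8.82%, compare with 88.1%, 76.4%, 46.5% and 8.49% of all rows in the same bands. The median within-group SD of the entries was 0.25 on the log2 scale in the brightest band and 0.64 in the dimmest, against 0.24 and 0.64 for all rows. A typical interval of an entry reached 0.70 to either side, or 1.63-fold. Background correction by the authors is not known, so these bounds are on intensity and need not hold for the RNA.

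Brightness varied along the accession range. Splitting it wherever consecutive accession numbers were more than 10 apart, a rule chosen after the accessions were seen, gave 5 runs of 2, 14, 12, 7 and 89 entries. The first 2 runs, MIMAT0005458 to MIMAT0005593, hold 16 entries, 15 of them tested. Of these 15, 14 lay among the 519 brighter rows and 0 among the 259 dimmest, with a median intensity of 29.9. The untested entry, MIMAT0005586, had an empty cell and so was placed in no band. Its geometric mean over 5 arrays was 13.1, below the 18.0 that bounds the dimmest band. The 89 tested entries of the later runs had a median of 20.8, with 34 among the 519 brighter rows and 34 among the 259 dimmest. The 6 brightest entries all lay in the last run, MIMAT0005863 to MIMAT0005955, whose geometric means ran from 7.54 to 10547. The run from MIMAT0005823 to MIMAT0005829 had its highest geometric mean at 32.8.

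**Figure D4:**
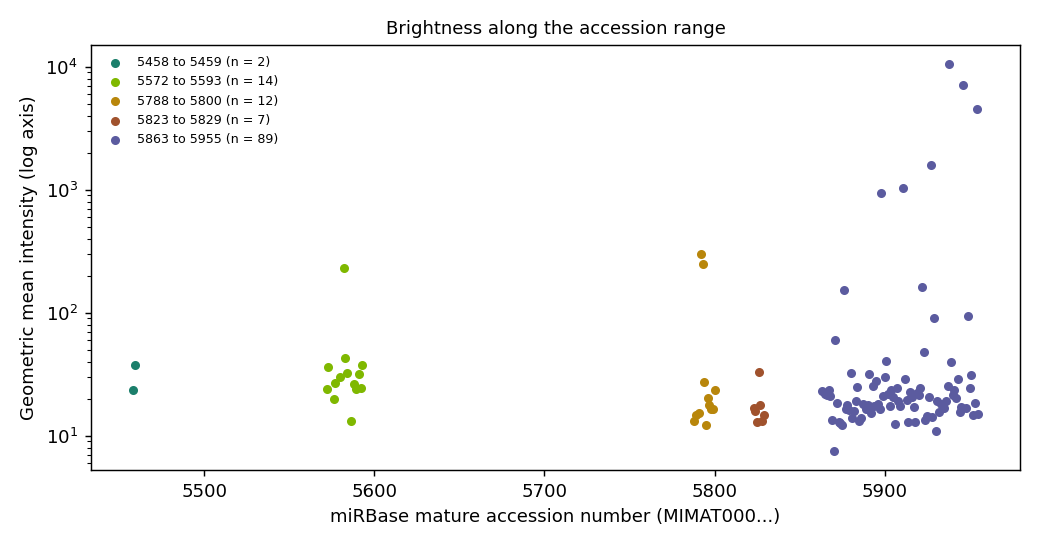
Geometric mean intensity over the available arrays (log axis, arbitrary units) of each of the 124 entries against its miRBase accession number, coloured by run. The 16 entries numbered up to 5593 lie mostly between 20 and 43, whereas the last run spans from 7.54 to 10547 and holds the 6 brightest entries.

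The 15 tested entries of the 2 early runs leaned lower with metformin, in contrast to the 13 bright entries. Their median log2 difference was -0.12, with 11 lower (73.3%, against 47.1% of all rows) and 4 higher, and 0 had an unadjusted p under 0.05 by limma. Of all rows, 71.5% had a higher mean with metformin in the brightest band and 45.2% in the next. Those 2 bands hold 14 of the 15. The brightest of the 15, MIMAT0005582, also belongs to the 13 bright entries. It had a mean of 213 ± 13.6 in control (SD, n = 3). With metformin it had a mean of 261 ± 63.8 (SD, n = 3). The median deviation of the 15 from their own means was 0.03, 0.15 and 0.08 on the control arrays and -0.05, -0.06 and -0.03 on the metformin arrays, on the log2 scale. Over all rows tested, the median deviations were 0.01, -0.04 and 0.08 in control and -0.004, 0.03 and 0.12 with metformin, with overlap. The deviations of the 15 do not overlap between the groups, the closest being 0.03 and -0.03. Their median intensities do overlap, at 30.3, 30.8 and 30.3 in control and 31.6, 28.7 and 31.2 with metformin. The runs were formed after earlier results were known, so the lean is a description. The next 3 runs had median differences of -0.02, 0.19 and 0.04.

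Array patterns were compared over the 6 arrays by Pearson's r of log2 intensity, as a description. Of the 1037 other rows tested, the one most like MIMAT0005946 was MIMAT0005954 (r = 0.993), and the reverse held too. MIMAT0010251, outside the range and at place 761 in brightness, was nearly as like both (r = 0.992 and 0.990). The row most like MIMAT0005938 was MIMAT0016873, outside the range (r = 0.98), at place 428 in brightness. The row most like MIMAT0005898 was MIMAT0004784, also outside the range (r = 0.989), at place 63. Such values were the highest of 1037 over only 6 arrays.

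Empty cells affected 20 entries (16.1%), against 14.4% of all 1212 rows. A single cell was empty for 14 entries, 2 cells for 5 and 4 cells for 1. Metformin replicates 1, 2 and 3 lacked 4, 14 and 0 of the 124 entries, and control replicates lacked 5, 1 and 4. Of all 1212 rows these arrays lacked 26, 113, 3, 36, 19 and 27, in the same order. The entries with an empty cell were dim where measured, with a median value of 16.7, against 23.8 for the entries with all 6 values. Why cells were left empty is not known.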

How the data were processed

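The authors deposited 1 table of processed linear intensity values for 6 arrays, 3 control and 3 metformin. Per the labels' protocols, total RNA was labelled with Hy5 using a commercial microRNA kit. For the scanner, the background correction, the scaling between arrays and the handling of empty cells, the sources used here name no method. Column medians lie between 22.8 and 24.1. The precision is limited by 3 arrays per group, and depth is not defined for arrays. On control replicate 1, 4 entries have more than 1 decimal, which no other array shows for the range.

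Intensities were converted to log2 without a pseudocount. The 1038 rows with a value on all 6 arrays were fitted together with limma 3.58.1 in R 4.3.3 (lmFit, plain eBayes, two-sided, no covariates), with Benjamini-Hochberg adjustment over all 1038 rows and a threshold of 0.05. The fit was tested on simulated data with independent noise for each value, which does not cover differences of whole arrays. Sequences were read from RefSeq tables. Plots used matplotlib 3.10.9 in Python 3.11.15.

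The entries, lists and alternatives were chosen with earlier results of these data known. Entries were to be named by brightness, by smallest p and by lists of microRNA names. As no accession could be paired with a name, the rule's fallback of at most 2 accessions per direction was used, the bright entries were singled out after their values were seen, and the name lists, the cell type markers and the comparison of signal with sequence composition were not used.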

Additional observations from a re-analysis of the deposited data

How the results depend on the processing

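Under all 15 alternative settings 0 entries passed an adjusted p under 0.05, as did 0 of all rows. The count at an unadjusted p under 0.05 was 7 of 104 entries, against 28 of all 1038 rows. It was 2 of 48 entries among the 519 brighter rows, where 10 of all rows reached it. Among the 260 brightest it was 0 of 23 entries and 1 of all rows. With trend and robust settings it was 2 entries and 18 of all 1038 rows. When 1 array was left out, the count of entries ranged from 2 (without control replicate 3) to 7. That of all rows ranged from 23 (without control replicate 1) to 44 (without control replicate 2). The median difference, 0.03, was 0.094 among the 260 brightest and ranged from -0.044 (without control replicate 2) to 0.039. Intervals excluding a 2-fold change numbered 20 of the entries left among the 260 brightest, and 37 (without control replicate 3) to 56 without 1 array. The count of bright entries higher with metformin, 13, ranged from 7 (without control replicate 2) to 13. It was 9 after quantile normalization, where MIMAT0005946 and MIMAT0005954 stood at 0 within rounding. The early-run median, -0.12, was -0.035 among the 260 brightest and ranged from -0.19 (without metformin replicate 1) to -0.093. MIMAT0005938 turned to -0.046 after quantile normalization. Without 1 array it ranged from -0.036 to 0.092, MIMAT0005946 from -0.043 to 0.085, MIMAT0005954 from -0.058 to 0.11, MIMAT0005927 from -0.00085 to 0.20, MIMAT0005911 from 0.11 to 0.41 and MIMAT0005898 from -0.031 to 1.04. Of these, MIMAT0005911 kept its sign, the 4 before it turned without control replicate 2 and the last turned without metformin replicate 2. The cause was not tested.

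With the replicate block 0 entries passed and 5 of 104 had an unadjusted p under 0.05, against 24 of all 1038 rows. The shared replicate numbers were not taken as pairs. Correlations of deviations from the group means for numbers 1, 2 and 3 were 0.01, -0.27 and -0.02 over all rows tested. Over the entries tested they were 0.03, -0.39 and -0.06.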
